A study of Homo sapiens with 4 samples.

Results

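Kinesins are motor proteins that use ATP to walk along microtubules or to shorten them, and their genes make up a single superfamily with 2 broad kinds of work. Members were chosen by symbol alone: every gene in the count table whose symbol is KIF followed by a digit, or KIFC1, KIFC2 or KIFC3. That gave 42 of the 20263 genes in the table, 12 counted as mitotic (KIF2C, KIF4A, KIF11, KIF14, KIF15, KIF18A, KIF18B, KIF20A, KIF20B, KIF22, KIF23 and KIFC1) and 30 others, many of them cargo transporters. After a filter on low counts 33 could be tested, all 12 mitotic genes and 21 of the others. RNA was sequenced from MDA-MB-231, an established human breast cancer line that lacks the oestrogen, progesterone and HER2 receptors. One group (2 libraries) received DMSO, the solvent, and the other (2 libraries) received RB-BC, a derivative of the CDK4/6 inhibitor ribociclib, for 24 h. The treatment protocol in the labels names the agent Rib_CA, it is not stated whether that is RB-BC, and the dose is not given. Separate cultures are not named in the labels, so each p-value rests on differences between libraries that could be purely technical.

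Mitotic kinesins build the spindle, move and align chromosomes on it, and shape the midzone and the cleavage furrow as the cell divides. Transcripts of many of them are made mainly in the G2 and M phases of the cell cycle, under the DREAM and MuvB complexes and B-MYB and FOXM1, which act at promoter elements called CHR and CCAAT boxes. Transport kinesins carry organelles, vesicles, RNA and cilium components along interphase microtubules, and most are not tied to a phase of the cycle.

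The 4 libraries held 34774542 to 42786422 counts. Mitochondrial transcripts took 21.7% of the counts of DMSO library 2 and 8.68% to 10.3% of the other 3. Fits without DMSO library 2, or without mitochondrial genes, are given below for the mitotic kinesins. Beyond these fits the part of this difference in the results was not tested. Levels are given as CPM, counts scaled to a common library size after TMM, a method that lines up libraries on most of their genes. The label of the line was checked against markers: VIM stood at 3725 ± 597 CPM in DMSO (SD, n = 2), AXL at 1655 ± 180, and MSN and CD44 were also well above the low markers. The oestrogen receptor gene ESR1 stood at 0.410 ± 0.284 CPM, PGR at 1.54 ± 0.266, GATA3 at 15.2 ± 8.76, and the epithelial cadherin gene CDH1 had 3 counts in all libraries together. Of the 5 markers that should be present, CAV1 fell (573 ± 1.70 to 268 ± 5.87 CPM). Markers of other cell types were low: CD3E had no count, PTPRC and PECAM1 stood under 2 CPM, and COL1A1 stood at 7.42 ± 0.689 CPM in DMSO and 3.35 ± 0.543 in RB-BC.

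Transcripts of the mitotic kinesins were lower after RB-BC, and those of most other kinesins did not pass the test. Of the 12 mitotic genes 11 fell and none rose by edgeR's quasi-likelihood test (adjusted p under 0.05 over 13744 genes tested), beside 7.53% of all tested genes that fell and 8.58% that rose. In all 12 both RB-BC libraries lay below both DMSO libraries, an arrangement seen in 32.1% of all tested genes, with the reverse arrangement in 33.1%. Their median log2 fold change was −1.05, with a range from −1.27 (KIF11, next to −1.25 for KIF20B) to −0.43 (KIF2C), beside a median of −0.00 over all tested genes. Of the 21 other kinesins tested, 2 fell (KIF24 and KIF5B), 1 rose (KIF21B) and 18 did not pass, with a median of 0.01. Among these 21, RB-BC lay below DMSO in 4 and above it in 9, and the groups overlapped in 8. In whole-cell-population RNA, fewer cells in mitosis and less RNA per cell cannot be told apart.

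The count of mitotic genes called depended on which library was left out and on the scaling. All 12 fold changes were negative in every fit. With both RB-BC libraries below both DMSO libraries in all 12, leaving out a library could hardly change that sign. Without RB-BC library 1 the count was 0 of 12 by edgeR (11 of 12 at an unadjusted p under 0.05, with 0.402% of all genes called lower), and without RB-BC library 2 it was 1, KIF11 (11 unadjusted, 0.99% of all genes). Scaling by library totals alone left 6 (3.02% of all genes), the calls of KIF4A, KIF14, KIF15, KIF18A and KIF22 being lost.

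**Figure D1:**
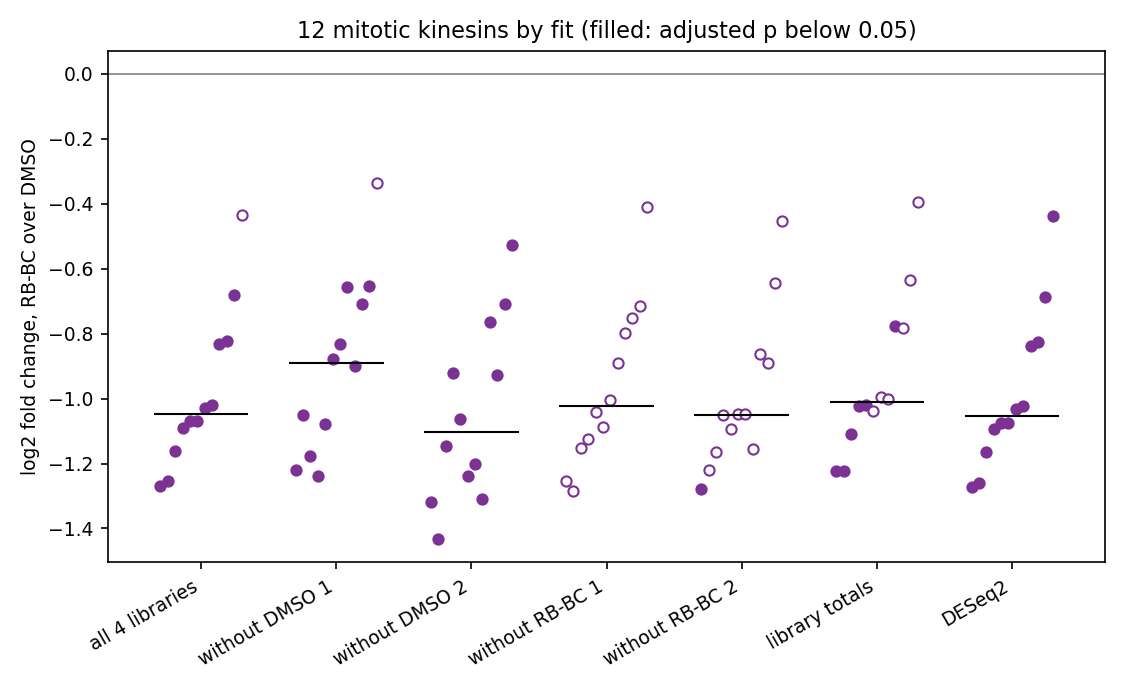
Log2 fold change of the 12 mitotic kinesins in 7 of the fits (points, in the order of the fit to all 4 libraries; bars are medians; filled points passed the test at 0.05). All points lie below 0 in these 7 fits, while none is filled without RB-BC library 1 and 1 is filled without RB-BC library 2.

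**Figure D2:**
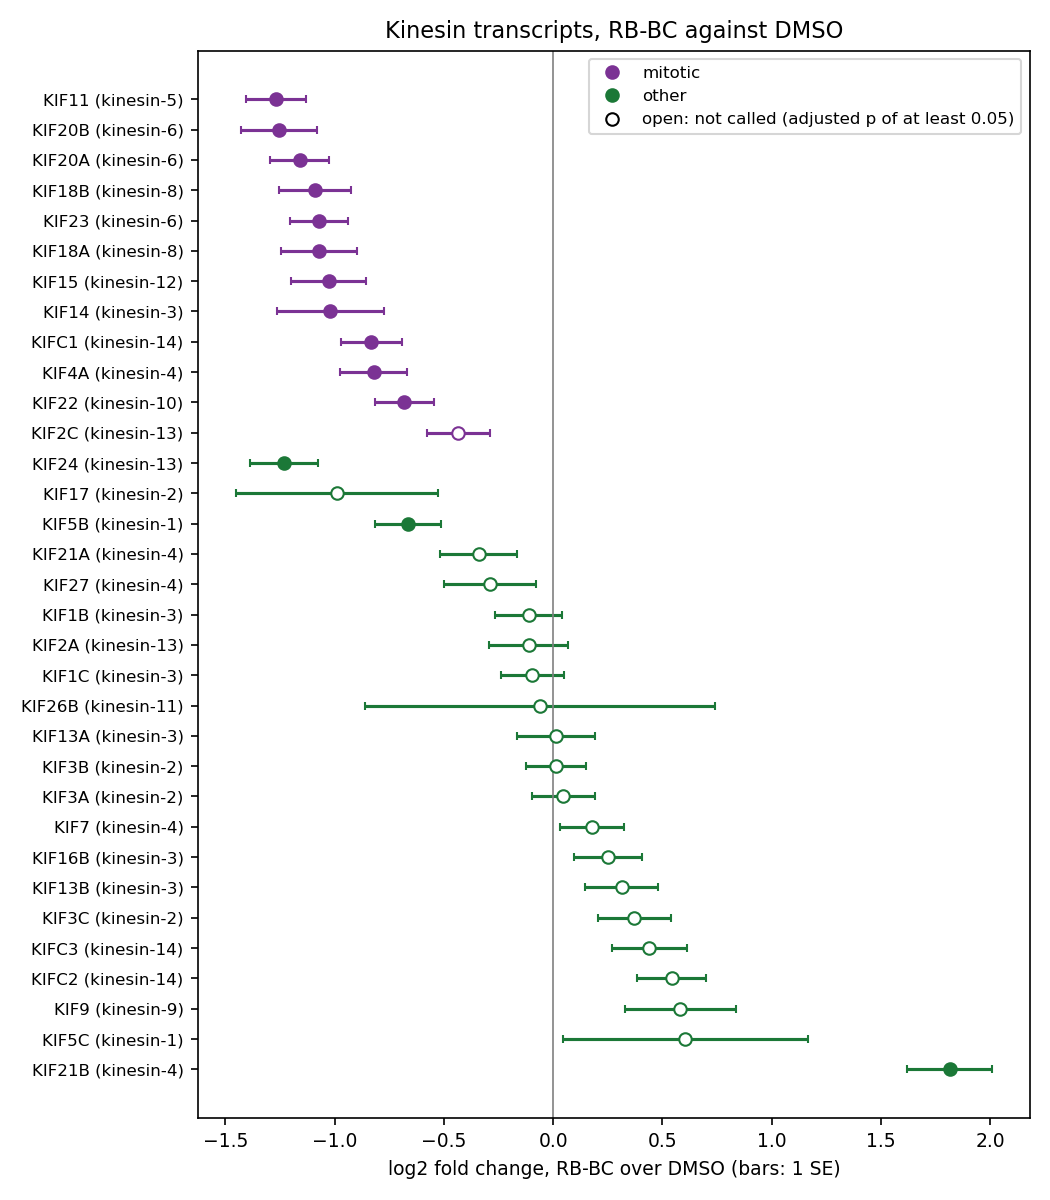
Log2 fold change of each tested kinesin, RB-BC over DMSO, with bars of 1 standard error, ordered within the mitotic (purple) and other (green) genes. Filled points passed the edgeR test; 11 of 12 mitotic points are filled and lie left of 0, and among the others only KIF24, KIF5B and KIF21B are filled.

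The promoters of these genes are shown because the mitotic members moved together. RefSeq promoter windows of GRCh38.p14 were used, 300 bases each, from 250 before to 50 after an annotated start. Both strands were searched for the CHR element (TTTGAA), the CCAAT box (CCAAT) and 4 forms of the E2F site (TTTGGCGC, TTTCCCGC, TTTCGCGC and TTTGCCGC); none of these motifs contains another, and matches of different motifs were allowed to share bases. Stretches from 100 to 20 bases before the start are printed below, 5′ to 3′ along each gene's strand, with CHR and CCAAT matches on either strand in capitals (a match on the opposite strand reads TTCAAA or ATTGG). KIF11, KIF18B and KIF4A stand for mitotic genes that fell, KIF2C for the mitotic gene that was not called, KIF24 for a gene outside the mitotic group that fell, and KIF3B for a transport motor that was not called.
KIF11: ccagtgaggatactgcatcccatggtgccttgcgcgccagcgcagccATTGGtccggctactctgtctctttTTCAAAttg
KIF18B: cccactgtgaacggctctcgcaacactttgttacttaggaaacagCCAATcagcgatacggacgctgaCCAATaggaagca
KIF4A: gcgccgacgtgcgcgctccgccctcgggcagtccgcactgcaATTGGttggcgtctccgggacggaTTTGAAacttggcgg
KIF2C: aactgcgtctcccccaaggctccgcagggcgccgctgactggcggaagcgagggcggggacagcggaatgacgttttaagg
KIF24: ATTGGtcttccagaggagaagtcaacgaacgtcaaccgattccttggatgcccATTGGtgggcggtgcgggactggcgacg
KIF3B: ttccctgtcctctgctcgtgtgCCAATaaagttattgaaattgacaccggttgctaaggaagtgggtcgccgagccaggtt
These lie at chr10:92593030-92593110 (forward strand), chr17:44947793-44947873 (reverse strand), chrX:70290004-70290084 (forward strand), chr1:44739737-44739817 (forward strand), chr9:34329288-34329368 (reverse strand) and chr20:32277551-32277631 (forward strand), all upstream of the annotated start used. Overlap of these stretches with annotated exons was not tested.

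A CHR match was present in 9 of the 13 windows of the mitotic kinesins (69.2%), in 2 of 30 windows of the others (6.67%) and in 15.2% of all 35116 windows. The 9 mitotic genes were KIF4A, KIF11, KIF14, KIF15, KIF18A, KIF18B, KIF20B, KIF23 and KIFC1, and the first base of the match lay between −55 and 31 from the start. CCAAT was found in 10 of 13 mitotic windows (76.9%), in 10 of 30 others (33.3%) and in 34.6% of all windows. An E2F match was found in 1 mitotic window (7.69%, KIF15), in 1 other window (3.33%, KIF25) and in 3.31% of all. In the printed stretches KIF11 and KIF4A carry a CCAAT box followed by a CHR match toward the start, while in KIF18B a pair of CCAAT boxes is printed and its CHR match lies at 3, past the printed end. KIF2C held none of the 3 motifs in its window, and KIF20A and KIF22 held CCAAT without TTTGAA. KIF24, printed with a pair of its CCAAT boxes, had no CHR match, and the 2 other kinesins with one were KIF5B, at −140, and the KIF4A retrogene KIF4B, at 4. Across all tested genes with a window, TTTGAA was found in 20.8% of the 843 that fell, 13.5% of the 9212 not called and 11.5% of the 906 that rose. For CCAAT these shares were 51.6%, 42.2% and 42.7%, and for E2F 13.6%, 5.96% and 4.86%. Letter runs this short recur by base composition alone, so a match is a description of the window and not a binding site. Windows were matched for all 12 mitotic genes and for 22 of the 30 others.

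**Figure D3:**
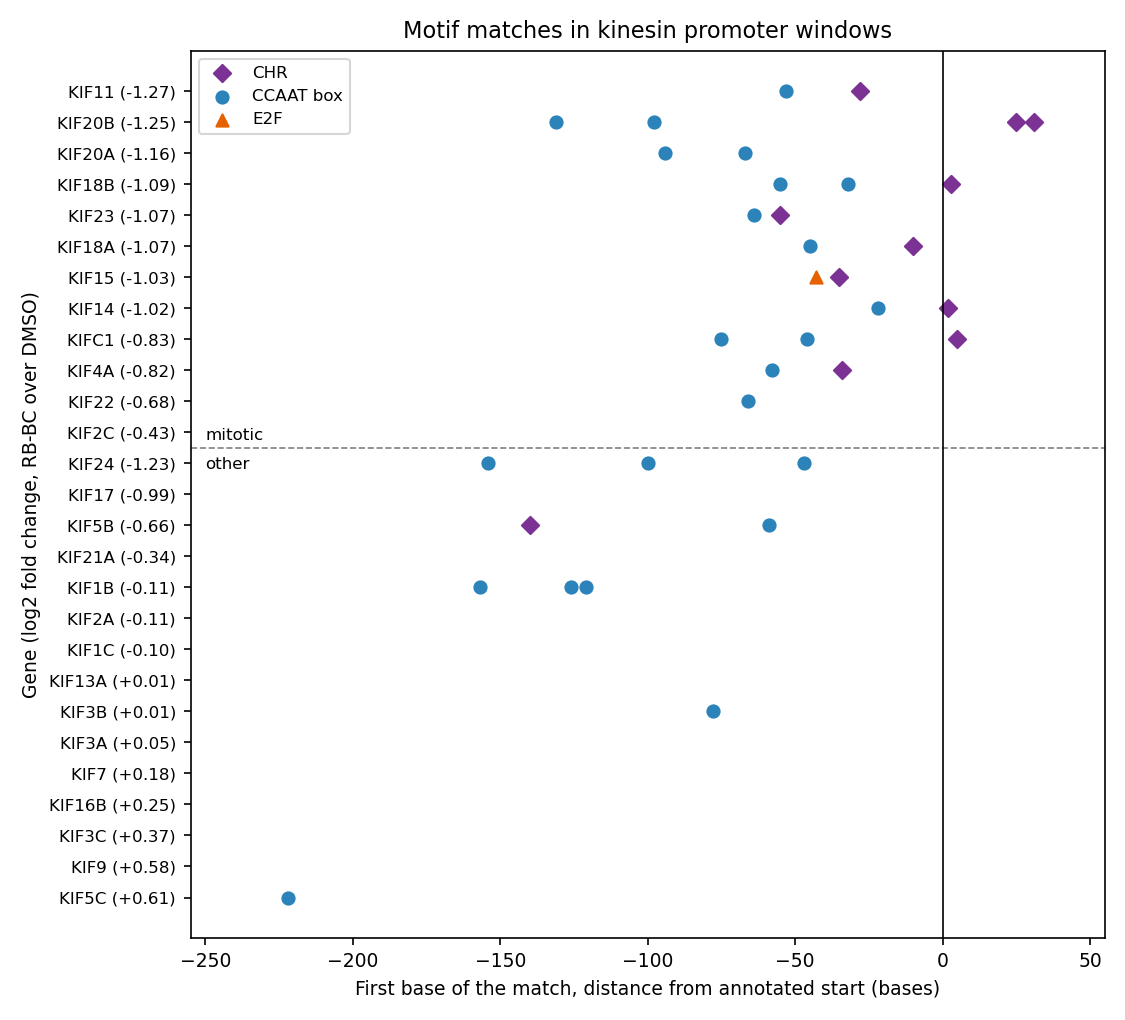
Position of each motif match (first base, in bases from the annotated start) in the promoter windows of tested kinesins, ordered by log2 fold change within the mitotic and other genes. CHR diamonds sit between −55 and 31 in 9 mitotic genes, and KIF5B at −140 is the one other tested kinesin with a diamond.

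Spindle pole separation depends on KIF11 (Eg5, ENSG00000138160), a tetramer that slides antiparallel microtubules apart. It stood at 162 and 152 CPM in DMSO libraries 1 and 2 and at 64.6 and 65.6 CPM in RB-BC libraries 1 and 2. Both treated libraries were less than the lower control, and the means were 157 ± 7.42 and 65.1 ± 0.691 CPM (SD, n = 2 each). The log2 fold change was −1.27 ± 0.14 (SE, edgeR adjusted p = 0.00838), a 2.41-fold lower level. KIF15, which can keep the poles apart when KIF11 is blocked, read 68.7 and 53.2 CPM in DMSO and 29.5 and 30.3 in RB-BC. Its groups did not overlap and it fell by 1.03 ± 0.17 on the log2 scale (adjusted p = 0.0184). KIFC1 (HSET), a minus-end motor that pulls poles together and clusters extra centrosomes in tumour cells, read 136 and 149.6 CPM in DMSO and 78.5 and 81.9 in RB-BC. KIFC1 fell by 0.83 ± 0.14 (adjusted p = 0.0184), so the motors that push poles apart and the one that draws them together were all lower.

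Chromosome arms are pushed toward the spindle equator by chromokinesins. KIF4A, which also binds PRC1 at the midzone and works with condensin, read 72.6 and 62.4 CPM in DMSO and 36.3 and 40.0 in RB-BC. It fell by 0.82 ± 0.15 (adjusted p = 0.0223). KIF22 (Kid), the other chromokinesin, read 118 and 113 CPM in DMSO and 73.9 and 70.3 in RB-BC, with a fall of 0.68 ± 0.13 (adjusted p = 0.0268). KIF4B, a retrogene almost identical to KIF4A in sequence, had 1, 2, 0 and 0 counts, and how reads were shared between the pair is uncertain. KIF4A exons also overlap those of PDZD11 on the opposite strand, and the strand setting of the counting is not known.

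The length of kinetochore microtubules is set by motors of the kinesin-8 and kinesin-13 families. KIF18A, which damps chromosome oscillations and which chromosomally unstable tumour cells lean on, read 54.2 and 42.3 CPM in DMSO and 23.3 and 22.7 in RB-BC, a fall of 1.07 ± 0.17 (adjusted p = 0.0172). KIF18B, which works with KIF2C at the tips of astral microtubules, read 107 and 134 CPM in DMSO and 58.0 and 55.1 in RB-BC, a fall of 1.09 ± 0.16 (adjusted p = 0.0148). For both kinesin-8 motors the higher treated library lay well below the lower control. KIF2C (MCAK), the depolymerase that frees wrongly attached chromosomes, read 132 and 116 CPM in DMSO and 90.7 and 93.3 in RB-BC. The KIF2C groups did not overlap either, and the log2 fold change of −0.43 ± 0.14 did not pass (edgeR adjusted p = 0.0900). By DESeq2 KIF2C passed (−0.44, adjusted p = 0.0480), as it did in edgeR without DMSO library 2 (−0.53, adjusted p = 0.0304). KIF18A exons overlap METTL15 on the opposite strand.

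Cytokinesis motors of the kinesin-6 family carry signals and bundle microtubules between the separating chromosomes. KIF20A (MKLP2), which brings the chromosomal passenger complex to the midzone, read 175 and 179 CPM in DMSO and 78.8 and 79.4 in RB-BC, a fall of 1.16 ± 0.13 (adjusted p = 0.00939). KIF20B (MPHOSPH1), needed late in cytokinesis, read 134 and 103 CPM in DMSO and 50.9 and 48.6 in RB-BC, a fall of 1.25 ± 0.17 (adjusted p = 0.0125). Libraries of one group were close together for KIF20A and further apart for KIF20B in DMSO, yet the distance between groups was larger than either spread. KIF23 (MKLP1), the motor subunit of centralspindlin, read 99.5 and 101 CPM in DMSO and 46.9 and 48.5 in RB-BC, with a fall of 1.07 ± 0.13 (adjusted p = 0.0105). KIF14, which brings citron kinase to the midbody, read 104.5 and 66.5 CPM in DMSO and 38.4 and 46.0 in RB-BC. KIF14 had the widest DMSO pair and the adjusted p nearest the threshold of the 11 (−1.02 ± 0.24, adjusted p = 0.0413). KIF20A exons overlap CDC23 and BRD8 on the opposite strand.

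**Figure D4:**
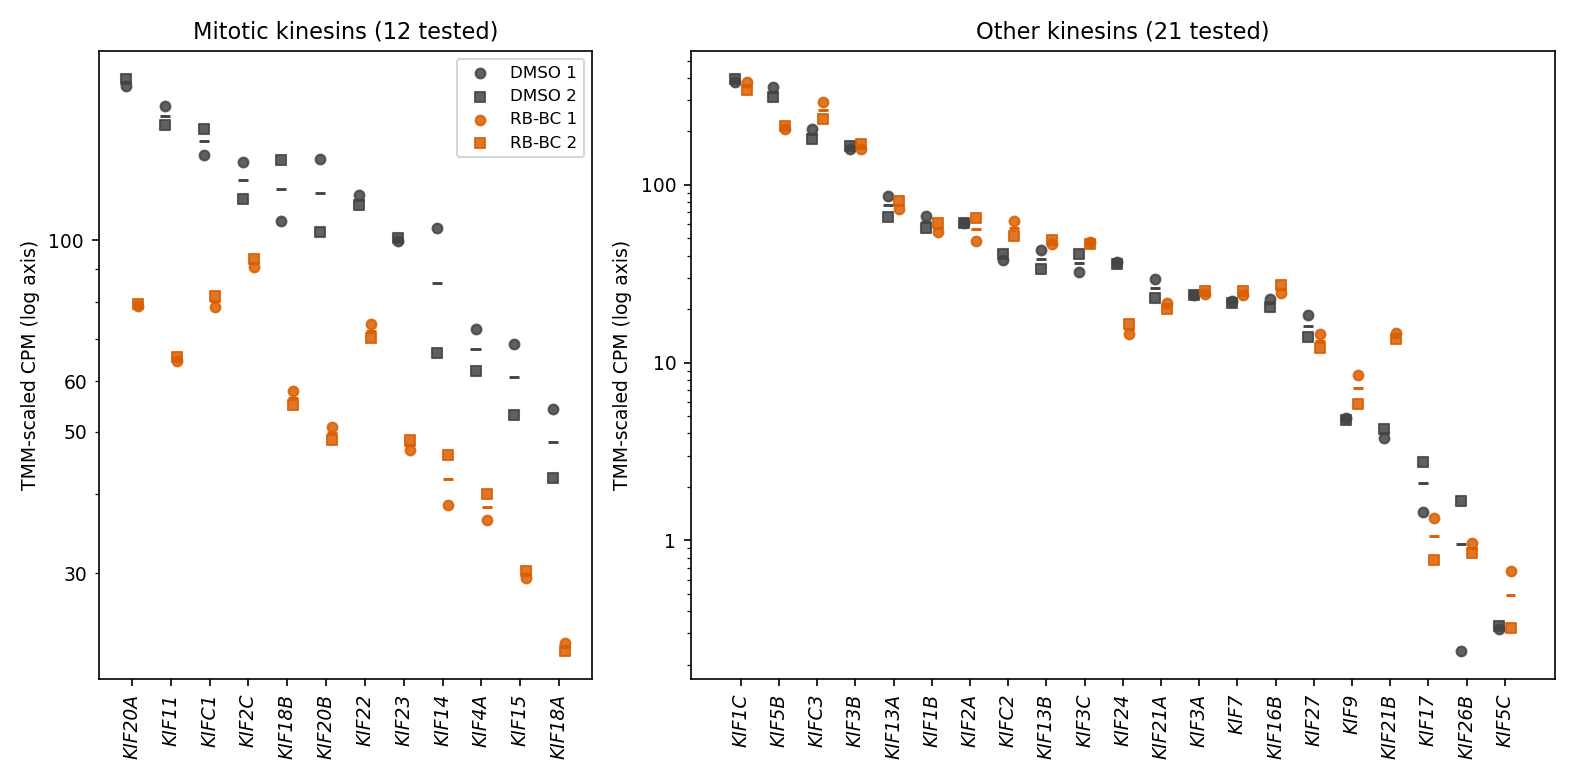
TMM-scaled CPM of every tested kinesin in each library (log axes that differ between panels; DMSO grey, RB-BC orange, library 1 circles, library 2 squares, short bars group means of 2). In the left panel both orange symbols lie below both grey ones for all 12 mitotic genes. In the right panel they lie below in 4 of the 21 genes and above in 9, and the groups overlap in 8. Of these 21 only KIF24, KIF5B and KIF21B were called.

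Among the mitotic genes the treated pair lay closer together than the control pair, as it did over all tested genes. The median absolute log2 gap between the libraries of a group was 0.20 in DMSO and 0.06 in RB-BC for the 12 mitotic genes, against 0.17 and 0.14 for the 21 others. Over all tested genes this gap was 0.23 in DMSO and 0.13 in RB-BC, with 1 added to each CPM before the log. DMSO library 2 was the lower of the control pair in 8 of the 12 mitotic genes and in 12 of the 21 others. That is the library with the high mitochondrial share; without it 12 of 12 mitotic genes fell (edgeR), and with mitochondrial genes removed the count stayed at 11.

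Kinesin-13 also has members outside the mitotic group. KIF24, a depolymerase of the mother centriole that holds back cilium growth in cycling cells, read 36.7 and 35.8 CPM in DMSO and 14.4 and 16.4 in RB-BC. The groups were far apart, 36.2 ± 0.619 against 15.4 ± 1.41 CPM, and KIF24 fell by 1.23 ± 0.15 (adjusted p = 0.0107), beside 1.27 for KIF11. Its exons overlap UBAP1 on the opposite strand, and without RB-BC library 1 its edgeR call was lost (−1.14, adjusted p = 0.0917). KIF2A, a depolymerase of spindle poles and of neurites, read 61.1 and 61.2 CPM in DMSO and 48.2 and 65.0 in RB-BC, which straddle the controls (−0.11 ± 0.18, adjusted p = 0.688). KIF2A shares exon bases with IPO11 on the same strand. KIF2B had 2 counts in all.

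Conventional kinesin (kinesin-1) moves mitochondria, lysosomes and vesicles outward, and KIF5B is its form in most tissues. KIF5B read 357 and 311 CPM in DMSO and 206 and 215 in RB-BC. Each RB-BC library was below both controls, and KIF5B fell by 0.66 ± 0.15 (1.59-fold lower, adjusted p = 0.0362). The neuronal forms hardly counted: KIF5C stood at 0.323 ± 0.007 and 0.494 ± 0.247 CPM with overlapping groups (0.61 ± 0.56, adjusted p = 0.475), and KIF5A had 2 counts. The call of KIF5B was lost with scaling by library totals alone (edgeR adjusted p = 0.109). It was lost too with the replicate number added to the model (edgeR adjusted p = 0.0550). That call was also lost without RB-BC library 1 (−0.63) and without RB-BC library 2 (−0.69).

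KIF21B, of the kinesin-4 family, was the single kinesin that rose. It encodes a motor that pauses microtubule growth, known best from neurons and T cells. KIF21B was counted 142 times in each control library and 634 and 595 times in the treated ones, which is 3.77 and 4.24 against 14.6 and 13.6 CPM. Every RB-BC value was far above both controls, and KIF21B rose by 1.82 ± 0.19 (3.52-fold, edgeR adjusted p = 0.00824), a call kept in each of the 13 fits run. Its paralogue KIF21A, which restrains microtubules at the cell cortex, read 29.6 and 23.2 CPM in DMSO and 21.6 and 20.1 in RB-BC and did not pass (−0.34 ± 0.18, adjusted p = 0.225). KIF7, a regulator of Hedgehog signalling at the cilium tip, had 0.18 ± 0.15 and its relative KIF27 −0.29 ± 0.21, neither called; KIF7 exons overlap TICRR on the opposite strand. With KIF4A, the kinesin-4 family thus held one fall, one rise and 3 genes not called.

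Kinesin-2 drives transport into the cilium and of vesicles. KIF3B read 159 and 166 CPM in DMSO and 158 and 169.9 in RB-BC, and its partner KIF3A 24.1 and 24.0 against 24.3 and 25.3. The KIF3B groups overlapped and the KIF3A groups lay next to each other, and neither gene passed (log2 fold changes 0.01 ± 0.14 and 0.05 ± 0.14, adjusted p = 0.954 and 0.845). KIF3C, the alternative partner found mostly in neurons, read 32.3 and 40.7 CPM in DMSO and 47.6 and 46.8 in RB-BC, above the controls in both libraries but short of the threshold (0.37 ± 0.17, adjusted p = 0.169); without DMSO library 2 it passed (0.55, adjusted p = 0.0344). KIF17, the homodimer of the family, was low at 1.43 and 2.77 against 1.34 and 0.776 CPM (−0.99 ± 0.46, adjusted p = 0.186).

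Kinesin-3 motors carry vesicles and endosomes over long distances, and their one mitotic relative is KIF14. KIF1C, a carrier of integrins and of mRNAs, read 378 and 393 CPM in DMSO and 379 and 343 in RB-BC (−0.10 ± 0.15, adjusted p = 0.672). The remaining tested members KIF1B, KIF13A, KIF13B and KIF16B had log2 fold changes from −0.11 to 0.31, and none passed with all 4 libraries, KIF13B passing without DMSO library 1 (0.50, adjusted p = 0.0493). Thus KIF14 was the only one of 6 tested kinesin-3 genes with a call.

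The kinesin-14 family pairs mitotic KIFC1 with KIFC2 and KIFC3, minus-end motors of interphase cells. KIFC3, which tethers microtubules at junctions and organelles, read 207 and 181 CPM in DMSO and 291 and 235 in RB-BC. KIFC2 read 37.95 and 40.7 CPM in DMSO and 63.0 and 51.6 in RB-BC. Values of the pair were higher in each treated library, yet neither gene passed in edgeR (0.44 ± 0.17, adjusted p = 0.129, and 0.54 ± 0.16, adjusted p = 0.0678). KIFC2 passed by DESeq2 (0.54, adjusted p = 0.0337), and its exons overlap FOXH1 on the opposite strand. KIF9, a ciliary motor whose exons overlap KLHL18, read 4.86 and 4.74 against 8.55 and 5.84 CPM (0.58 ± 0.26, adjusted p = 0.163), and KIF26B spread from 0.239 to 1.67 CPM within DMSO alone.

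Of the 9 kinesins not tested, KIF1A, KIF6, KIF12 and KIF19 had no count in any library. KIF2B, KIF4B, KIF5A and KIF26A had 2 or 3 counts over all 4 libraries and KIF25 had 15. These include the neuronal carriers KIF1A and KIF5A and the ciliary motor KIF19.

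Per kilobase of exon, the order of the kinesins changed between groups. The length used was the union of all annotated exons of a gene, not that of the transcript expressed. Levels of different genes are thus set side by side only roughly. In DMSO the highest were KIF5B (56.8 CPM per kilobase), KIF1C (44.9), KIF20A (44.7), KIFC1 (42.7), KIF2C (34.1) and KIF11 (32.3). In RB-BC they were KIF1C (42.1), KIF5B (35.9), KIFC3 (27.4), KIF3B (26.9), KIF2C (25.2) and KIFC1 (24.0), with KIF20A 7th and KIF11 9th. Summed over members, the mitotic genes gave 295 and 280.3 CPM per kilobase in DMSO and 149.6 and 152 in RB-BC, while the others gave 219 and 209 against 203 and 198. The mitotic share of the summed level of the 42 members was 57.3% and 57.3% in DMSO and 42.4% and 43.4% in RB-BC. Kinesins filed under other symbols, CENPE and STARD9, are not in these sums. Per kilobase the other kinesins made up the larger part in the treated libraries and the smaller part in the controls. Without division by length the others were the larger part in all 4 libraries (1594 and 1504 CPM against 1364 and 1271 for the mitotic genes in DMSO, and 1517 and 1465 against 669.8 and 682 in RB-BC).

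**Figure D5:**
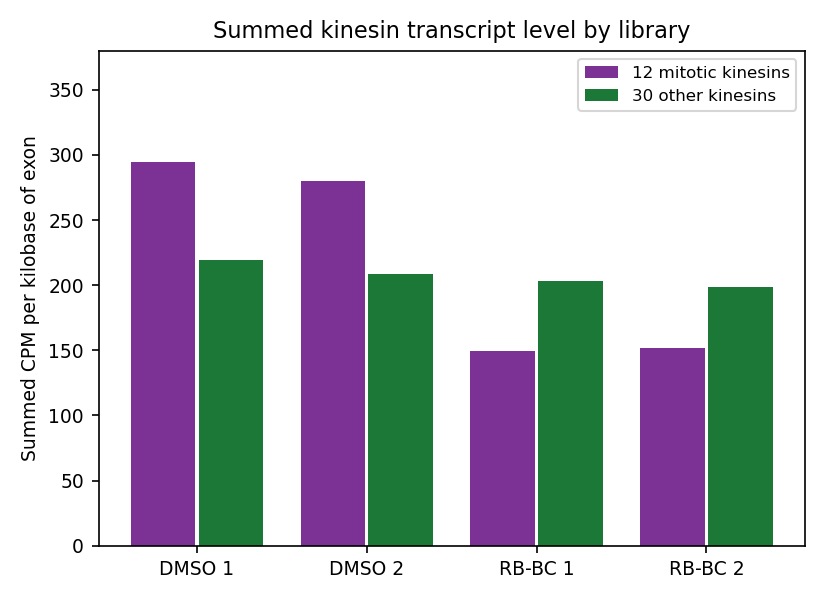
Summed level of mitotic and other kinesins in each library, in CPM per kilobase of exon. The mitotic sum is 295 and 280.3 in the DMSO libraries and 149.6 and 152 in the RB-BC libraries, while the sum of the others runs from 198 to 219.

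Genes that work with these motors were read from lists. CENPE, the kinetochore kinesin filed under another symbol, stood at 138 ± 26.6 CPM in DMSO and 51.3 ± 2.26 in RB-BC and fell by 1.43 ± 0.18 (adjusted p = 0.0107), a larger drop than that of any KIF gene, though the difference between them was not tested. Its call was lost without RB-BC library 1 (−1.47, adjusted p = 0.0672). The other such gene, STARD9, had −0.27 ± 0.17 (adjusted p = 0.289). Of 20 partners and regulators of the mitotic motors 12 fell and none rose, beside 7.53% and 8.58% of all tested genes, with a median of −0.76. They include the furrow scaffold ANLN (508 to 199 CPM, −1.35), the passenger subunit INCENP (−1.19), the spindle protein NUSAP1 (−1.15), the checkpoint kinase BUB1B (−1.12) and RACGAP1 (−0.84), which forms centralspindlin with KIF23. Without RB-BC library 1 the calls of all 5 were lost. Those of BUB1B (−1.14), INCENP (−1.24) and RACGAP1 (−0.89) were also lost without RB-BC library 2. The call of RACGAP1 was lost with library totals alone as well (edgeR adjusted p = 0.0586).

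Partners of transport motors and the tracks were read beside the same shares of all tested genes (7.53% fell, 8.58% rose), and with 15 to 27 genes a list these counts are not far from them. Of 21 tested cargo adaptors and light chains none fell (median 0.14), and the kinesin light chain KLC4 rose (13.8 ± 0.875 to 26.3 ± 3.61 CPM, 0.93). Of 27 tested genes of dynein and dynactin, the motor that walks the opposite way, 1 rose, the adaptor HOOK2 (0.94), and none fell (median −0.07). Among 15 tested tubulins, the track itself, TUBB3 fell from 44.7 ± 12.1 to 7.87 ± 2.07 CPM (−2.50 ± 0.28, adjusted p = 0.00881), TUBB4B fell (802 to 463 CPM, −0.79) and TUBE1 rose (0.92), with a median of −0.09. Tubulin genes are close paralogues, so how reads were shared among them is uncertain. The calls of KLC4, HOOK2, TUBE1 and TUBB4B were lost without either RB-BC library, while TUBB3 kept its call in each of the 13 fits.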

How the data were processed

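RNA-seq libraries of MDA-MB-231 cells were grouped by sample title (2 DMSO, 2 RB-BC). Per the labels' protocols, mRNA libraries were made from 1.4 µg of RNA. The authors deposited whole-number read counts per human Ensembl gene; the sources used here give no aligner, counter, strand setting or annotation, and the submitters' processing notes list mouse builds (GRCm38, mm10). Without the strand setting, reads of genes that overlap on opposite strands cannot be told apart. Symbols came from an ID table (20148 genes) or GENCODE 29 (76), and 39 IDs had none. Same-group libraries were not copies of each other (chi-square over its degrees of freedom was 222 in DMSO, 35.4 in RB-BC).

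Genes were kept by filterByExpr (minimum count 10, total 15), scaled by TMM and tested two-sided with edgeR 4.0.16 (R 4.3.3) quasi-likelihood fits over all 4 libraries, with Benjamini-Hochberg adjustment over 13744 genes and a threshold of 0.05. The SE is the log2 fold change divided by the square root of F. Levels between genes use GENCODE 29 exon lengths, the union of all annotated exons of a gene. Code was tested on simulated data. Alternatives were DESeq2 1.42.0, limma 3.58.1 (voom), other scalings and filters, a replicate block and leaving out each library. Promoter windows came from RefSeq (GRCh38.p14). The members and lists were chosen with earlier results of these data known. All tested members are named. Of other lists at most 5 called genes are named, those with the smallest adjusted p. One gene of the cargo adaptor list is not reported here.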

Additional observations from a re-analysis of the deposited data

How the results depend on the processing

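With 2 libraries per group, depth did not limit the mitotic kinesins, which had 5467 counts or more each over the 4 libraries, whereas 9 other kinesins had too few counts to test. Scaling by library totals alone lowered the number of mitotic kinesins that fell from 11 to 6 and of other kinesins that fell from 2 to 1, moved the median of the others from 0.01 to 0.075, and gave 415 genes lower and 790 higher over all genes, against 1035 and 1179. With a replicate block 1 other kinesin fell (KIF24). KIF5B missed the threshold (−0.66, edgeR adjusted p = 0.0550), and no other kinesin call changed. Deviations of same-numbered libraries from their group means had a correlation of −0.0746 over genes. With 2 libraries per group, crossed pairs give the same value with the sign turned. Whether the numbers pair the samples therefore cannot be decided from it. DESeq2 gave 2 other kinesins that rose and 1583 genes lower. Leaving out 1 library at a time, the mitotic kinesins that fell ran from 0 to 12 and their median from −1.10 to −0.89, the others that fell from 0 to 2, the others that rose from 1 to 2 and their median from 0.017 to 0.079, and all genes ran from 56 to 1760 lower and from 149 to 1888 higher. The lowest counts came from fits without an RB-BC library, in which the lone library is assumed to vary like the other group. KIF26B turned positive with library totals alone (0.075), limma voom (0.54) and the replicate block (0.33), and ran from −0.88 to 1.91 with 1 library left out. Under that omission KIF5C ran from −0.014 to 1.04, KIF2A from −0.34 to 0.090, KIF3B from −0.037 to 0.067 and KIF13A from −0.17 to 0.22. The cause was not tested.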
